A study of Mus musculus with 12 samples.

Results

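The genes examined here encode granule proteins, receptors and enzymes of mast cells, basophils and eosinophils. The members were named by symbol: Cpa3, Fcer1a, Hdc, Mcpt8, Prss34, Tpsb2, Cma1, Prg2, Epx and Il1rl1. A gene was measured through every probe set, a group of short probes to one transcript, that the platform annotation gives exactly 1 gene symbol. By this rule 8 of the 10 genes were measured, with 10 probe sets of the 45037 tested, and they are 8 of the 18193 genes of the array with such a probe set. Expression of Prss34 and Il1rl1 was not analysed here, and for them the sequence windows before the start site alone were searched. For each gene the brightest probe set by its average over all 12 arrays leads, and the second probe sets of Hdc and Tpsb2 served as checks.

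The RNA came from cells sorted from liver of mice homozygous for the PU.1 Q202L knock-in (KI) and of their wild-type littermates (WT), strain C57Bl/6 in the sample records and a mixed strain in the study's reporting summary. The records give newborn mice, and the study's text gives fetal liver. PU.1, encoded by Spi1, is an Ets transcription factor of blood cells, and the Q202L protein retains DNA binding but does not bind c-Jun. The allele is in the germline, so every cell of a KI animal carries it. Short-term hematopoietic stem cells (ST-HSC) were gated as lin- Sca-1+ c-kit+ CD150-, and granulocyte-macrophage progenitors (GMP) as lin- Sca-1- c-kit+ cells high for the receptors FcγRII/III and positive for CD34. The sample records give CD48+ for the ST-HSC and the title of the series gives CD48-. The KI counterpart of the GMP is called GMP-like here because the study describes it with intermediate CD34. By that description the genotype and the CD34 gate cannot be told apart in the GMP comparison. WT ST-HSC, WT GMP, KI ST-HSC and KI GMP-like were each measured on 3 arrays, with 1 sample on each array. Neither shared animals nor pooling is given in the sources used here, so a p-value reflects only how these samples differ among themselves, which may be technical. No mature mast cells, basophils or eosinophils were sorted, and in these bulk samples fewer cells of a type and less RNA per cell cannot be told apart.

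Mast cells and basophils carry the high-affinity IgE receptor and store histamine and serine proteases in granules that they empty on activation. Eosinophils store cationic proteins and a peroxidase and depend on interleukin-5. Transcripts for several of these granule proteins already appear in progenitors of the fetal and adult blood system, where GATA-2, C/EBPα and PU.1 are among the factors that take part in the choice between these lineages and the neutrophil and monocyte lineages.

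The values are log2 values after robust multi-array averaging (RMA). Array medians ranged from 5.00 to 5.10 in ST-HSC and from 4.70 to 4.79 in GMP, so KI was compared with WT within a population and no level was compared between the populations. Replicates of a group correlated over all probe sets with a Pearson's r of 0.963 to 0.990. Xist, the transcript of the inactive X chromosome, read 10.67 to 11.74 in replicates 1 and 3 of WT ST-HSC and of WT GMP and 2.98 to 3.78 in the other 8 arrays, so that all 6 KI arrays were low and 4 of the 6 WT arrays were high. Spi1 read 7.89 to 8.95 over the 12 arrays, and its probes cannot see the point mutation. Of the genes that define ST-HSC, 0 of 8 in KI and 1 of 8 in WT averaged below the array medians. The 1 in WT was Slamf1, with a mean of 4.61 in WT and 6.53 in KI. It encodes CD150, which the gate excludes, so its low value in WT is not a departure from the gate. In KI its mean lay above the ST-HSC array medians, and the arrays do not measure surface CD150. Cd48, also on this list, averaged 11.84 in KI and 11.68 in WT ST-HSC, and the sources differ on CD48 in the gate. Of the genes that define GMP, 1 of 9 in KI GMP-like and 0 of 9 in WT GMP averaged below the array medians.

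The regions before the start sites of the 4 genes with a called difference are shown so that their upstream sequence can be set beside the array values. They are RefSeq sequences of the build GRCm38.p6, printed 5′ to 3′ on the strand of the gene. Capitals mark the binding motif of GATA factors on either strand, which was searched as AGATAA and in the further forms AGATAG as well as TGATAA and likewise TGATAG. Each run holds the 250 bases that end at the base before the start: chr3:20242182-20242431 for Cpa3, chr2:126618679-126618928 for Hdc, chr14:56085198-56085447 for Mcpt8 and chr14:55944676-55944925 for Cma1, all on the minus strand.
Cpa3: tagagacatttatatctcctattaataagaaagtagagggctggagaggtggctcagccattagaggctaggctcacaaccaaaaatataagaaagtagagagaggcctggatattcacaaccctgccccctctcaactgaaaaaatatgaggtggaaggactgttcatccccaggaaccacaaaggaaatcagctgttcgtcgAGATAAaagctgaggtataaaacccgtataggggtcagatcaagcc
Hdc: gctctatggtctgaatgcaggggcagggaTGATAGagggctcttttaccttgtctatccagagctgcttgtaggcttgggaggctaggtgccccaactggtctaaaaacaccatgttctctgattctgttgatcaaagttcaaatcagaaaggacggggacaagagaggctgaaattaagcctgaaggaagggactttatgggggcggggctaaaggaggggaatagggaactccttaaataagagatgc
Mcpt8: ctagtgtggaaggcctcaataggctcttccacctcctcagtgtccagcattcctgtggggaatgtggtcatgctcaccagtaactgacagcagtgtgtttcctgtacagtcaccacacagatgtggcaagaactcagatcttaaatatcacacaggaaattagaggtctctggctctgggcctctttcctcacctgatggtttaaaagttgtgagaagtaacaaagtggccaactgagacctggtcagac
Cma1: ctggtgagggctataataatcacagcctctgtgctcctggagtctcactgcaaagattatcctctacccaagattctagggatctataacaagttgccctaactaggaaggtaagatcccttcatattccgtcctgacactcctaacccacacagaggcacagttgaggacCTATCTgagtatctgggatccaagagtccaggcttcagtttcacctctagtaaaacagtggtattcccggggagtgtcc
The match lies 46 bases before the start in Cpa3, 221 bases before it in Hdc and 79 bases before it in Cma1, and the Mcpt8 window holds none. Over windows that also take in the 50 bases after the start, 6 of the 8 members with a window held a match (Cpa3, Fcer1a, Hdc, Prss34, Cma1 and Il1rl1), and Mcpt8 and Epx held none. Of all 32851 windows of this length, 29.8% held one. The Ets letters GGAAGT stood in the window of Il1rl1 alone among the members (23.8% of all windows), and the longer GAGGAAGT in none (3.2%). No member window held the AP-1 letters TGANTCA (7.81%) or the C/EBP letters TTGCGCAA and their variant TTGCGAAA (0.356%). The E-box letters CACGTG, here also searched as CATGTG, stood in those of Fcer1a and Prss34 (20.4%). These are matches of letters on both strands, not bound sites, and no motif overlapped another in the windows printed.

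In ST-HSC, the mast cell protease gene Cpa3, the histamine-forming enzyme gene Hdc and the basophil protease gene Mcpt8 were higher in KI, by 6.45-fold, 4.71-fold and 2.98-fold. No member was called lower. Calls were made by limma, with 1 fit over the 12 arrays, where the p adjusted by Benjamini-Hochberg across the 45037 probe sets was under 0.05. Thus 3 of the 8 members were called higher, where 1.02% of all probe sets were called higher and 1.19% lower. All 3 KI arrays lay above all 3 WT arrays in 4 of the 8 members (Cpa3, Hdc, Mcpt8 and Epx), which held for 10.3% of all probe sets. The median KI minus WT difference over the 8 members was 1.66 on the log2 scale, beside -0.02 over the 18193 genes.

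Cpa3 encodes carboxypeptidase A3, a granule enzyme of mast cells that basophils and their progenitors also make. It was read by the probe set 1448730_at. Its 3 KI ST-HSC arrays read 11.01, 10.88 and 10.76, and its 3 WT ST-HSC arrays read 8.19, 8.78 and 7.61. Every KI array was above every WT array, and the KI arrays lay close together. The difference was 2.69 on the log2 scale (SE 0.269, 95% confidence interval 2.10 to 3.28, n = 3 arrays per group, limma adjusted p = 0.000620). It stayed called without any 1 of the 12 arrays, with adjusted p-values from 0.000259 to 0.00552, and with the Xist level as a covariate (2.44, adjusted p = 0.00729). SAM, the permutation-based test named in the study's methods, called none of the 8 members, Cpa3 included, in either population.

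Hdc encodes histidine decarboxylase, which makes histamine, and was read by 1451796_s_at, a probe set whose suffix marks that it may bind several transcripts. The KI ST-HSC arrays read 11.01, 10.74 and 10.82, and the WT ST-HSC arrays read 8.68, 9.55 and 7.63. The groups did not overlap, and the WT arrays were spread over a wider range. The difference was 2.24 (SE 0.431, limma adjusted p = 0.0236), and the second probe set of Hdc gave 1.76 (adjusted p = 0.0328). The call was lost without any 1 of the 3 KI ST-HSC arrays or without WT ST-HSC replicate 1, with adjusted p-values from 0.0541 to 0.0866, and with Xist as a covariate (1.50, adjusted p = 0.0937).

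Mcpt8 encodes mast cell protease 8, a granule protease that in mice marks basophils. Through 1449965_at it read 8.41, 8.07 and 7.68 in KI ST-HSC and 6.59, 6.59 and 6.26 in WT ST-HSC. All KI arrays were above all WT arrays, with a difference of 1.57 (SE 0.349, limma adjusted p = 0.0470). This call sat at the threshold. It held without KI GMP-like replicate 1, KI GMP-like replicate 2 or WT GMP replicate 1, and without any other array the adjusted p was 0.0568 to 0.165. It was 0.153 with Xist as a covariate and 0.246 without the 2 WT ST-HSC arrays of high Xist.

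Epx, the eosinophil peroxidase gene, read 7.11, 6.54 and 5.95 in KI ST-HSC and 4.43, 4.28 and 4.60 in WT ST-HSC. The groups were apart by more than either group's range, and the difference of 2.10 (SE 0.604, 95% confidence interval 0.76 to 3.44) did not pass the adjusted threshold in the fit of 12 arrays (limma adjusted p = 0.129). It passed in a fit of the 6 ST-HSC arrays alone (adjusted p = 0.0274) and without WT GMP replicate 1 (0.0488) or WT GMP replicate 2 (0.0460), arrays that enter the ST-HSC result only through the shared spread. The Epx difference was 1.48 with Xist as a covariate (adjusted p = 0.367), and the highest adjusted p with 1 array left out was 0.338.

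Prg2 encodes the major basic protein of eosinophil granules. Its KI ST-HSC arrays read 8.73, 8.54 and 8.49, and its WT ST-HSC arrays read 6.36, 8.70 and 5.47. WT replicate 2 stood at the level of the KI arrays and the other WT arrays stood below them. The difference was 1.74 (SE 0.635, limma adjusted p = 0.252). It was 0.49 with Xist as a covariate (adjusted p = 0.695), and it was 2.67 without WT ST-HSC replicate 2 (adjusted p = 0.00251). Without the 4 WT arrays of high Xist, which leaves WT ST-HSC replicate 2 alone, it was -0.12.

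Cma1, Tpsb2 and Fcer1a did not pass the test in ST-HSC. Cma1 encodes chymase, a protease of connective tissue mast cells, and read 6.78, 6.54 and 6.69 in KI ST-HSC and 7.62, 7.35 and 5.03 in WT ST-HSC, a difference of 0.0036 with a 95% confidence interval of -1.27 to 1.28. Tpsb2, a mast cell tryptase gene, read 5.22, 5.46 and 5.33 in KI and 5.79, 7.03 and 5.24 in WT ST-HSC (difference -0.68, limma adjusted p = 0.479). Without the 4 WT arrays of high Xist, which leaves WT replicate 2 alone, the Tpsb2 difference was -1.69. A call from that fit assumes that this array varies like the other groups. The second Tpsb2 probe set read 3.11 to 3.66 in all 6 ST-HSC arrays. Fcer1a, the ligand-binding chain of the IgE receptor, read 3.98, 4.04 and 5.28 in KI and 4.69, 3.55 and 3.22 in WT ST-HSC (difference 0.61, adjusted p = 0.709), with both group means below the array medians.

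**Figure D1:**
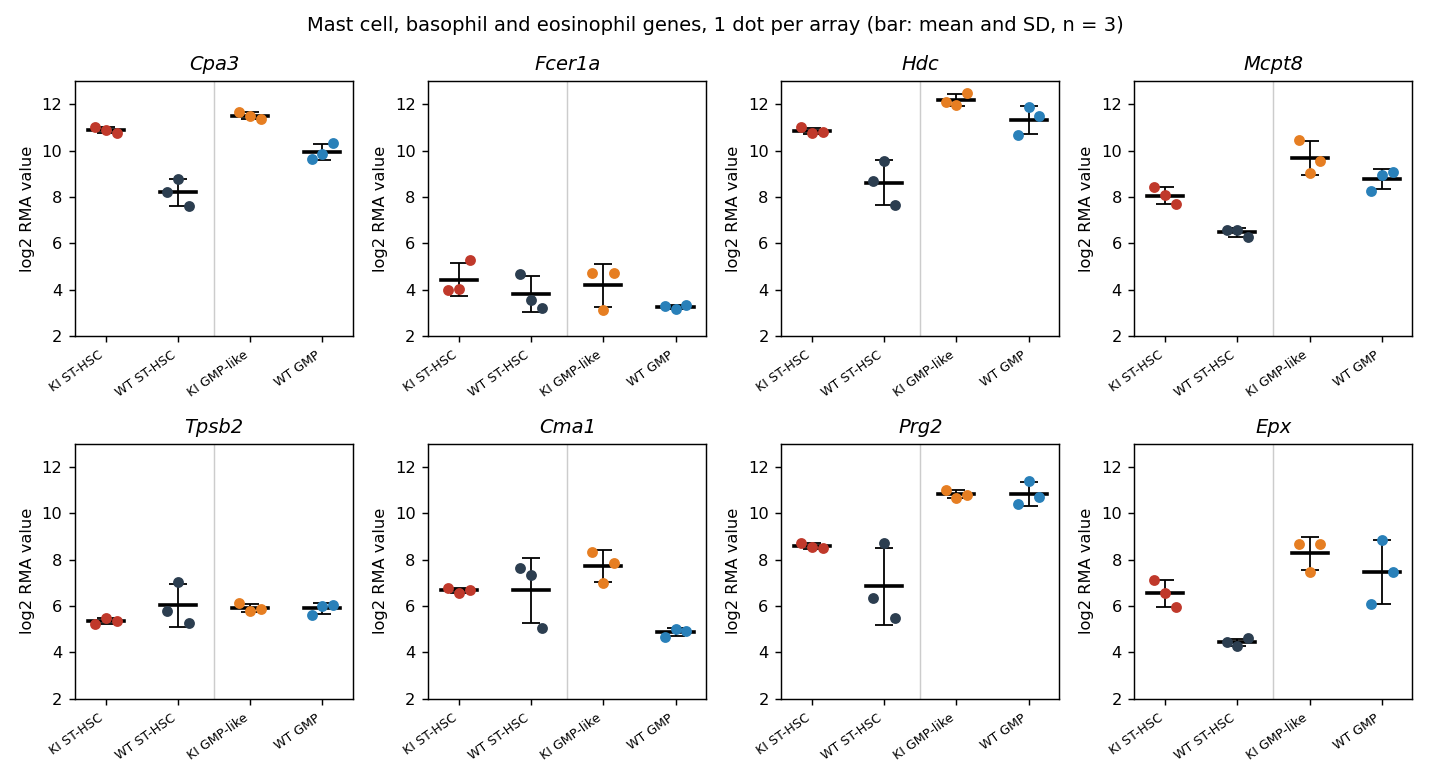
Log2 RMA values of the 8 measured genes, 1 dot per array, in the 4 groups, with black lines for the mean and the SD of 3 arrays. In ST-HSC the KI dots lie above the WT dots for Cpa3, Hdc, Mcpt8 and Epx, and in GMP for Cpa3, Hdc and Cma1.

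In GMP, Cpa3 and Cma1 were higher in KI GMP-like than in WT GMP, by 2.96-fold and 7.29-fold, and no member was called lower. These were 2 of the 8 members, beside 1.05% of all probe sets called higher and 1.07% called lower. By the lead probe sets, the KI arrays lay above the WT arrays without overlap in 3 members (Cpa3, Hdc and Cma1), which held for 8.01% of all probe sets. The median difference over the 8 members was 0.88, beside -0.03 over all genes.

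Cma1, through 1449456_a_at, read 8.32, 6.97 and 7.87 in KI GMP-like and 4.66, 4.99 and 4.91 in WT GMP. The lowest KI array was above the highest WT array by more than the whole WT range. The difference was 2.87 (SE 0.575, 95% confidence interval 1.59 to 4.14, limma adjusted p = 0.0324). The call held without KI GMP-like replicate 2 or any 1 of the WT ST-HSC arrays, and without any other array the adjusted p was 0.0545 to 0.101. With Xist as a covariate the difference was 2.49 (adjusted p = 0.139). Without the 4 WT arrays of high Xist, which leaves WT GMP replicate 2 alone, it was 2.73.

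Cpa3 read 11.68, 11.50 and 11.35 in KI GMP-like and 9.66, 9.86 and 10.31 in WT GMP. The groups did not overlap, and the difference was 1.57 (SE 0.269, 95% confidence interval 0.97 to 2.16, limma adjusted p = 0.0157). Without WT GMP replicate 1 the adjusted p was 0.0593, and with Xist as a covariate the difference was 1.32 (adjusted p = 0.0877). Cpa3 was thus the member called in both populations.

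The other members did not pass the test in GMP. Hdc read 12.11, 11.95 and 12.48 in KI GMP-like and 10.67, 11.86 and 11.48 in WT GMP, apart by a small margin (difference 0.84, limma adjusted p = 0.422). By the second Hdc probe set the genotypes overlapped, at 11.49 to 11.72 in KI GMP-like and 10.46 to 11.66 in WT GMP (difference 0.57, limma adjusted p = 0.550). Mcpt8 read 10.46, 9.03 and 9.54 in KI GMP-like and 8.27, 8.94 and 9.09 in WT GMP, with 1 KI array inside the WT range (difference 0.91, adjusted p = 0.251). The eosinophil granule genes overlapped between the genotypes. Prg2 read 10.99, 10.65 and 10.80 in KI GMP-like and 10.39, 11.38 and 10.69 in WT GMP (difference -0.0092, 95% confidence interval -1.41 to 1.40). Epx read 8.69, 7.44 and 8.66 in KI GMP-like and 6.08, 8.86 and 7.48 in WT GMP (difference 0.79, adjusted p = 0.646). Fcer1a read 4.73, 3.11 and 4.71 in KI GMP-like and 3.31, 3.15 and 3.32 in WT GMP (difference 0.92, adjusted p = 0.475), and the Tpsb2 arrays lay between 5.63 and 6.11 in all 6 samples (difference 0.02).

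**Figure D2:**
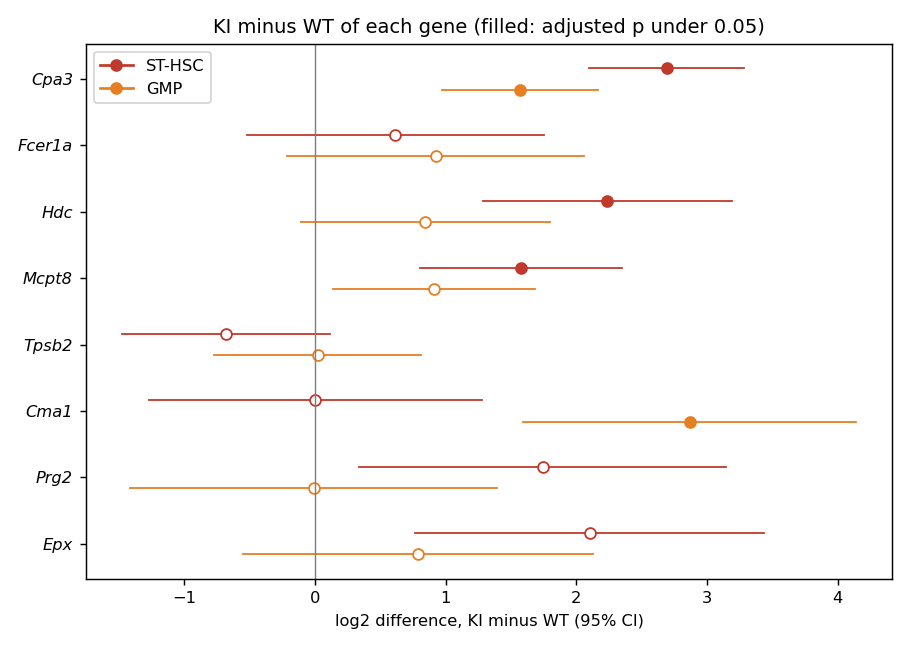
Log2 differences, KI minus WT, of the 8 genes, with 95% confidence intervals from the limma fit over 12 arrays, in ST-HSC (red) and GMP (orange); filled circles mark an adjusted p under 0.05. Cpa3 is filled in both populations, Hdc and Mcpt8 in ST-HSC and Cma1 in GMP.

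Whether the KI minus WT difference itself differed between the populations was tested as an interaction, GMP minus ST-HSC. None of the 8 members passed at an adjusted p under 0.05, where 0.0488% of all probe sets were called in either direction. At an unadjusted p under 0.05 there were 3 members, and the share of all probe sets at that threshold was not counted. Cma1 had the larger difference in GMP (2.86, SE 0.813, limma adjusted p = 0.326), and Cpa3 (-1.12, SE 0.380, adjusted p = 0.450) and Hdc (-1.39, SE 0.609, adjusted p = 0.618) had the larger difference in ST-HSC. Without WT ST-HSC replicate 3, the array in which Cma1 read 5.03, the Cma1 interaction was 3.68 (adjusted p = 0.0319).

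The SD of 3 arrays was smaller in KI than in WT for 6 of the 8 members in ST-HSC and for 5 of the 8 in GMP, beside 61.7% and 48.7% of all 45037 probe sets. KI ST-HSC arrays correlated with each other at 0.982 to 0.990 and WT ST-HSC arrays at 0.963 to 0.975. The widest was Prg2 in WT ST-HSC, with 6.84 ± 1.67 (SD, n = 3) against 8.58 ± 0.13 in KI. Cma1 stood at 6.67 ± 1.42 in WT ST-HSC and at 6.67 ± 0.12 in KI.

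Over the 12 arrays, with the mean of each population removed, the members did not move as one block. Pearson's r was 0.93 between Cpa3 and Hdc, 0.90 between Cpa3 and Mcpt8, 0.87 between Mcpt8 and Epx and 0.86 between Hdc and Prg2, and it was -0.30 to 0.31 between Tpsb2 and the other members. These values hold the genotype difference and come from the same 12 arrays. Outside the list, the genes most like Cpa3 over the 12 arrays were Ero1a (r = 0.987), C730049O14Rik (0.978), Chst13 (0.965), Nkg7 (0.964) and Gfi1b (0.963). Those most like Hdc were Chst13 (0.965), Ank1 (0.950), Ampd2 (0.949), Ero1a (0.949) and Papss2 (0.946). The genes named beside Cpa3 were all called higher in KI ST-HSC (limma adjusted p 3.83e-05 to 0.00595). In GMP Gfi1b alone of them was called (adjusted p = 0.00142). Beside Hdc all but Ampd2 (adjusted p = 0.0518) were called higher in KI ST-HSC, and none was called in GMP. Those most like Mcpt8 were Lbr (0.933), Coq8b (0.920), Atxn7 (0.912), Cyp11a1 (0.911) and Maob (0.908). Cyp11a1, the enzyme that begins steroid synthesis, was itself higher in KI ST-HSC (difference 3.51, limma adjusted p = 0.00244), as it was in KI GMP-like (difference 3.78, adjusted p = 0.00212). Lbr, Coq8b, Atxn7 and Maob were not called in either population (adjusted p 0.0579 to 0.568). Those most like Cma1 were Agbl3 (0.941), Abca1 (0.924), Gimap8 (0.917), 4833420G17Rik (0.898) and Helb (0.896). Of these, Abca1, Gimap8 and 4833420G17Rik were called higher in KI GMP-like (limma adjusted p 0.00260 to 0.0442), and none was called in ST-HSC.

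Other genes of these lineages were taken from 8 lists with 71 genes, of which 60 were measured. In ST-HSC 5 of the 60 were called higher and 6 lower in KI, with a median difference of 0.08, and in GMP 4 were called higher and 5 lower, with a median of 0.21. Over all 18193 genes, 242 were called higher and 305 lower in ST-HSC, and 217 higher and 254 lower in GMP. These lists thus held calls in both directions. None of the 8 members was called lower, but 8 genes are too few to set them apart from the lists by this, and no test was made.

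**Figure D3:**
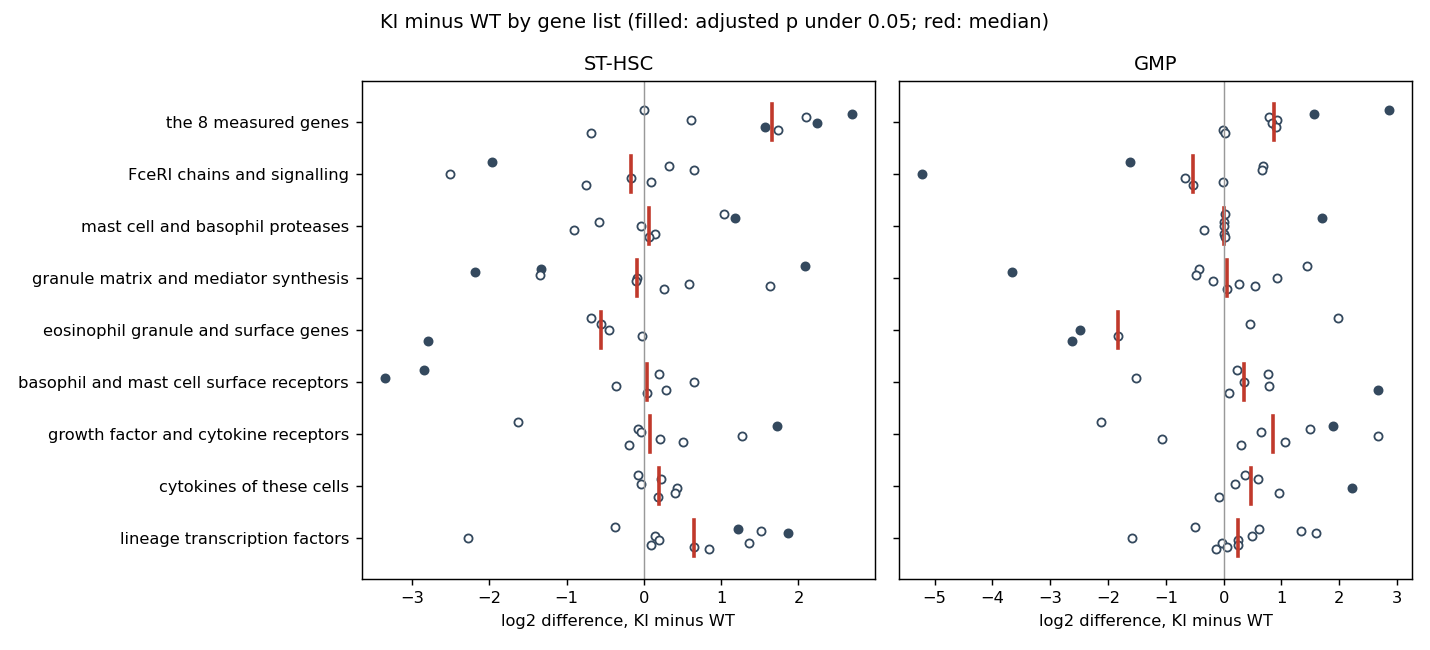
Log2 differences, KI minus WT, for the 8 measured members and for the 8 lists of other genes, in ST-HSC (left) and GMP (right), 1 dot per gene, filled at an adjusted p under 0.05, with a red line at the median. The horizontal scales of the panels differ, and the lowest dot is Ms4a2 in GMP at -5.21.

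The IgE receptor has a ligand-binding chain (Fcer1a), a signal-amplifying beta chain (Ms4a2) and a gamma chain (Fcer1g) shared with other Fc receptors. Among 7 measured genes of this receptor and its signalling, 0 were called higher and 1 lower in ST-HSC, and 0 higher and 2 lower in GMP. Ms4a2 read 5.80, 3.89 and 5.65 in KI GMP-like and 10.20, 11.24 and 9.55 in WT GMP. The lowest WT array was far above the highest KI array, and the level was 37.1-fold lower in KI (log2 difference -5.21, SE 0.827, limma adjusted p = 0.0106). The second Ms4a2 probe set gave -4.43 (adjusted p = 0.00121). By the lead probe set Ms4a2 read 6.39, 5.20 and 3.43 in KI and 7.72, 8.51 and 6.32 in WT ST-HSC, overlapping (difference -2.51, limma adjusted p = 0.196). Its interaction had an adjusted p of 0.610. By the second probe set the genotypes did not overlap in ST-HSC, with KI below WT (difference -1.16, adjusted p = 0.330). Fcer1g did not pass in ST-HSC (0.32, adjusted p = 0.497) or GMP (0.68, adjusted p = 0.0803). Btk, a kinase downstream of the receptor, was lower in KI in ST-HSC (-1.96, adjusted p = 0.0158) and GMP (-1.63, adjusted p = 0.0432). The Btk call was lost without KI ST-HSC replicate 2 or 3 or WT ST-HSC replicate 3 in ST-HSC (adjusted p 0.0641 to 0.0842). In GMP it was kept without KI ST-HSC replicate 1, WT ST-HSC replicate 2, KI GMP-like replicate 1 or KI GMP-like replicate 2 and was lost without any other array (0.0537 to 0.115).

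Among 7 other proteases, Gzmb was the gene called. Gzmb encodes granzyme B, best known from cytotoxic lymphocytes. It read 5.23, 4.77 and 5.24 in KI and 4.05, 4.02 and 3.62 in WT ST-HSC (difference 1.18, limma adjusted p = 0.00503), and 6.15, 6.20 and 5.97 in KI GMP-like and 4.38, 4.53 and 4.30 in WT GMP (difference 1.71, adjusted p = 0.000700). The KI arrays were above the WT arrays in both populations, and the WT values were below the array medians. Mast cell proteases resemble each other in sequence, and a probe set can bind transcripts of more than 1 of them.

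Among 9 measured genes of the granule matrix and of mediator synthesis, 1 was called higher and 2 lower in ST-HSC, and 0 higher and 1 lower in GMP. Hnmt, the enzyme that inactivates histamine by methylation, read 3.15, 3.09 and 2.93 in KI and 4.42, 5.95 and 5.34 in WT ST-HSC. In GMP it read 2.65, 2.50 and 2.83 in KI GMP-like and 6.06, 6.39 and 6.50 in WT. It was lower in KI ST-HSC (log2 difference -2.18, limma adjusted p = 0.00441) and in KI GMP-like (-3.66, adjusted p = 0.000218). All 6 KI values lay below the 25th percentile of their arrays (3.33 to 3.63), and the files hold no detection calls, so the size of these differences is uncertain. In ST-HSC the gene of the enzyme that makes histamine was thus higher and that of the enzyme that inactivates it lower in the same KI arrays. Of the genes of leukotriene synthesis, Alox5, the 5-lipoxygenase, was higher in KI ST-HSC (2.08, adjusted p = 0.0219), and Alox5ap, its activating protein, was lower (-1.33, adjusted p = 0.00916). The Alox5 call was lost without any 1 of the KI ST-HSC arrays, WT ST-HSC replicate 1 or WT ST-HSC replicate 3 (adjusted p 0.0630 to 0.0896), and that of Alox5ap without KI ST-HSC replicate 2 (0.0533). In GMP the differences of Alox5 (1.44, adjusted p = 0.100) and Alox5ap (-0.43, adjusted p = 0.413) did not pass. Alox5 passed there without WT ST-HSC replicate 2 or WT GMP replicate 2 (adjusted p 0.0363 to 0.0419). With Xist as a covariate the Alox5 difference was 1.21 in ST-HSC (adjusted p = 0.0180) and 0.59 in GMP (0.208), and without the high-Xist WT arrays it was 1.20 and 0.63 (0.0361 and 0.273). Ltc4s, the leukotriene C4 synthase, did not pass in ST-HSC (-0.11, adjusted p = 0.828) or GMP (-0.18, adjusted p = 0.613).

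Among 5 measured eosinophil genes other than the members, 0 were called higher and 1 lower in ST-HSC, and 0 higher and 2 lower in GMP. Siglecf, a surface lectin of mouse eosinophils, read 4.94, 3.77 and 4.65 in KI and 7.17, 7.02 and 7.53 in WT ST-HSC (difference -2.79, limma adjusted p = 0.00389). In GMP it read 7.13, 7.07 and 6.27 in KI GMP-like and 8.78, 10.11 and 9.43 in WT (difference -2.62, adjusted p = 0.00742). Il5ra, the interleukin-5 receptor chain, read 4.18, 3.84 and 3.84 in KI GMP-like and 5.81, 6.53 and 6.94 in WT GMP. It was 5.57-fold lower (log2 difference -2.48, adjusted p = 0.00220), while in ST-HSC it stood at 3.33 to 3.53 in KI and 3.47 to 4.44 in WT (adjusted p = 0.608). The eosinophil granule gene Prg3 had a difference of -0.03 in ST-HSC (adjusted p = 0.990) and of -1.82 in GMP (95% confidence interval -2.96 to -0.69, adjusted p = 0.108), where all KI arrays lay below all WT arrays. Alox15, a lipoxygenase gene of eosinophils, had a difference of -0.68 in ST-HSC (adjusted p = 0.696) and of 1.97 in GMP (95% confidence interval 0.75 to 3.20, adjusted p = 0.106), where all KI arrays lay above all WT arrays.

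Surface receptors gave 0 called higher and 2 lower of 7 in ST-HSC, and 1 higher and 0 lower in GMP. Cd33, a sialic acid-binding lectin of myeloid cells, was lower in KI ST-HSC (-3.35, limma adjusted p = 0.0164), and so was the chemokine receptor gene Ccr2 (-2.84, adjusted p = 0.00784), whose KI arrays read 6.44 to 6.88 and WT arrays 8.76 to 10.19. The Cd33 call was lost without any 1 of the KI ST-HSC arrays, WT ST-HSC replicate 1 or WT ST-HSC replicate 3 (adjusted p 0.0522 to 0.0789). In GMP neither Cd33 (-1.52, adjusted p = 0.272) nor Ccr2 (0.24, adjusted p = 0.893) passed, and Cd33 did without WT GMP replicate 2 (0.0481). The Cd33 difference in ST-HSC was -2.07 with Xist as a covariate (adjusted p = 0.0222) and -2.33 without the high-Xist WT arrays (0.0366), and in GMP it was -0.26 and -0.05 (0.821 and 0.985). Itgb7, the β7 integrin that mast cell progenitors use to reach the gut, read 10.90, 10.10 and 10.45 in KI GMP-like and 7.46, 8.39 and 7.61 in WT GMP, a 6.35-fold higher level (log2 difference 2.67, adjusted p = 0.00418). In ST-HSC the Itgb7 difference was 0.29 (adjusted p = 0.828), and its interaction did not pass (2.38, adjusted p = 0.162).

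Among 8 genes of growth factor and cytokine receptors, Csf2rb was the gene called. It encodes the beta chain shared by the receptors for interleukin-3, interleukin-5 and GM-CSF. It read 11.21, 11.01 and 10.96 in KI and 9.72, 8.73 and 9.57 in WT ST-HSC (difference 1.72, limma adjusted p = 0.0149), and 11.90, 11.55 and 11.98 in KI GMP-like and 10.45, 9.35 and 9.92 in WT GMP (difference 1.90, adjusted p = 0.0111). All KI arrays were above all WT arrays in both populations, and a second probe set gave 1.63 (adjusted p = 0.0275) and 1.87 (adjusted p = 0.0170). The ST-HSC call was lost without any 1 of the KI ST-HSC arrays (adjusted p 0.0519 to 0.0643). Csf2rb2 resembles Csf2rb in sequence, so probes may bind both, and its own probe set gave -0.08 in ST-HSC (adjusted p = 0.963) and 1.50 in GMP (adjusted p = 0.0720). Kit, the stem cell factor receptor on which mast cells depend and by which all 4 populations were sorted, had a difference of -0.20 in ST-HSC (adjusted p = 0.850) and of 0.30 in GMP (adjusted p = 0.710).

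Of 6 cytokines of these cells, 0 were called in ST-HSC by limma, with 0 at an unadjusted p under 0.05 and 0 by SAM, and Il6 was called higher in GMP. It read 5.35, 4.28 and 5.77 in KI GMP-like and 3.11, 3.29 and 2.33 in WT GMP (difference 2.22, limma adjusted p = 0.0108). The WT values were low on this array, and 2 of the 3 KI values were above the GMP array medians.

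Among 11 measured transcription factors of these lineages, 2 were called higher and 0 lower in ST-HSC, and 0 in GMP by limma. At an unadjusted p under 0.05, 4 were higher and 2 lower in GMP, where SAM called 0. The share of all probe sets at that unadjusted threshold was not counted. Gata2, a factor required for mast cells and basophils, read 11.14, 11.03 and 11.17 in KI and 9.30, 9.90 and 8.57 in WT ST-HSC (difference 1.86, limma adjusted p = 0.0325). In GMP it read 12.06, 11.60 and 11.76 in KI GMP-like and 9.95, 11.06 and 9.61 in WT (difference 1.60, adjusted p = 0.0639). The second Gata2 probe set passed in ST-HSC (1.71, adjusted p = 0.0335) and in GMP (1.72, adjusted p = 0.0360). The ST-HSC call was lost without any 1 of the KI ST-HSC arrays, WT ST-HSC replicate 1, WT ST-HSC replicate 3 or KI GMP-like replicate 3 (adjusted p 0.0505 to 0.113), and the GMP difference passed without WT ST-HSC replicate 2, WT ST-HSC replicate 3 or WT GMP replicate 2 (0.0156 to 0.0448). With Xist as a covariate the Gata2 difference was 1.10 in ST-HSC (adjusted p = 0.0815) and 0.85 in GMP (0.180). Without the high-Xist WT arrays it was 1.21 (0.0444) and 0.75 (0.227). Cebpa, which encodes C/EBPα, was higher in KI ST-HSC (1.21, adjusted p = 0.0305) and not called in GMP (0.61, adjusted p = 0.278). Its ST-HSC call was lost without any 1 of the KI ST-HSC arrays, WT ST-HSC replicate 2 or WT ST-HSC replicate 3 (0.0594 to 0.110). Gata1 (1.51, adjusted p = 0.0543) and Mitf, a factor of mast cells (-2.27, adjusted p = 0.0614), did not pass in ST-HSC, nor did they in GMP (1.34, adjusted p = 0.0813, and -1.59, adjusted p = 0.184).

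Some of these calls ended under other settings. With Xist as a covariate the adjusted p was 0.0540 to 0.0815 for Btk, Alox5ap, Ccr2, Gata2 and Cebpa in ST-HSC, 0.0664 for Il6 in GMP and 0.129 for Btk in GMP. Without the WT arrays in which Xist was high, the adjusted p was 0.0862 for Gzmb and 0.0550 for Siglecf in ST-HSC, 0.0787 for Ms4a2 in GMP and 0.175 to 0.208 for Btk in both populations, Alox5ap in ST-HSC and Il6 in GMP. In fits of the 6 arrays of a comparison it was 0.0522 to 0.134 for Gata2, Alox5 and Cebpa in ST-HSC and 0.0637 to 0.158 for Siglecf, Csf2rb, Il6 and Btk in GMP. Hnmt in both populations and Il5ra, Itgb7 and Gzmb in GMP stayed called in each of these limma fits and without any 1 array. SAM called Hnmt in GMP and none of the others of these, Hnmt in ST-HSC included.

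**Figure D4:**
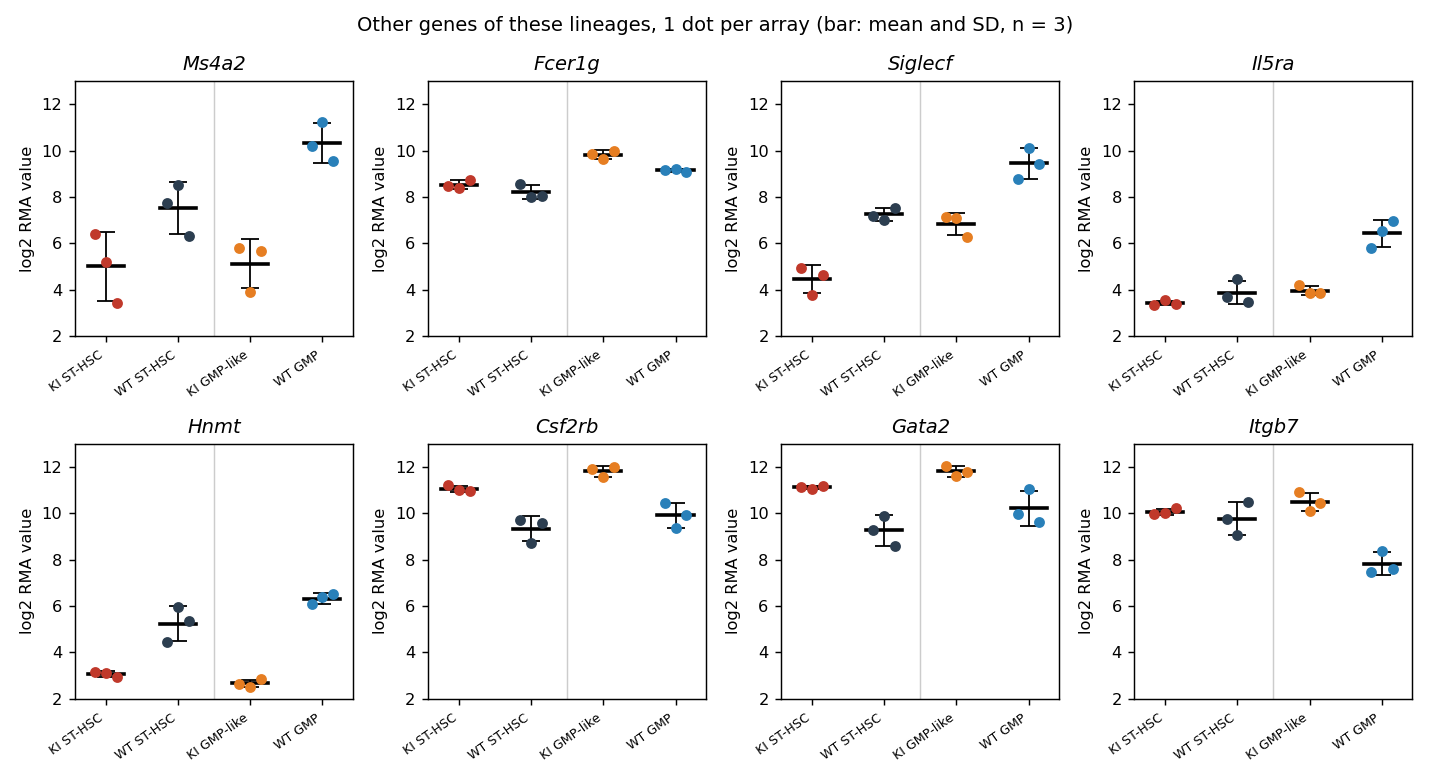
Log2 RMA values of 8 other genes of these lineages, 1 dot per array, with the mean and the SD of 3 arrays in black. Ms4a2, Siglecf, Il5ra and Hnmt stand lower in KI GMP-like than in WT GMP, and Csf2rb and Itgb7 stand higher.

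Markers of other cell types moved with the genotype in the same arrays. The summed log2 value of 10 monocyte and macrophage genes was 36.1 to 40.9 in KI and 78.3 to 89.2 in WT ST-HSC, with 6 of 10 called lower, and 41.5 to 43.4 in KI GMP-like and 65.5 to 72.7 in WT GMP, with 5 of 10 called lower. In KI ST-HSC 9 of these 10 genes averaged below the array medians. The sum of 7 B lymphoid genes was 31.9 to 32.4 in KI and 43.5 to 53.9 in WT ST-HSC (3 called lower), and 31.9 to 35.2 against 34.2 to 38.3 in GMP (1 called lower). The sum of 6 megakaryocyte and platelet genes was 41.5 to 42.8 in KI and 32.6 to 36.1 in WT ST-HSC (2 called higher), and 31.6 to 32.0 against 29.4 to 32.8 in GMP (1 called higher). The sum of 6 erythroid genes was 36.4 to 40.0 against 25.6 to 30.4 in ST-HSC (3 called higher) and 30.2 to 33.6 against 24.2 to 27.0 in GMP (0 called, 2 higher at an unadjusted p under 0.05). The sums of 10 neutrophil granule genes overlapped between the genotypes. In ST-HSC they were 73.6 to 80.6 in KI against 72.0 to 83.2 in WT (0 called, 2 higher at an unadjusted p under 0.05). There 2 genes had all KI arrays above all WT arrays and 1 had all below, beside 4649 and 4519 of all 45037 probe sets. In GMP the sums were 86.2 to 101.2 against 90.8 to 93.9 (1 called lower, 3 lower at an unadjusted p under 0.05). All KI arrays lay below all WT arrays in 3 of these genes in GMP, beside 4370 of all 45037 probe sets. The sum of 6 T and NK lymphoid genes was 31.3 to 32.7 against 30.8 to 31.9 in ST-HSC and 32.0 to 33.7 against 30.0 to 30.9 in GMP, with 1 called higher in each. The gates also differed in their own genes. Of 8 ST-HSC-defining genes, KI ST-HSC had 1 called higher and 1 called lower. Slamf1, which encodes the CD150 that the gate excludes, was higher there (1.92, limma adjusted p = 0.00132). Flt3 was lower (-2.69, adjusted p = 0.0215). Of 9 GMP-defining genes 2 were called lower in KI GMP-like, Ms4a3 (-6.83) and Cd34 (-2.87), and none higher. The part of these markers in the differences of the mast cell, basophil and eosinophil genes was not tested.

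**Figure D5:**
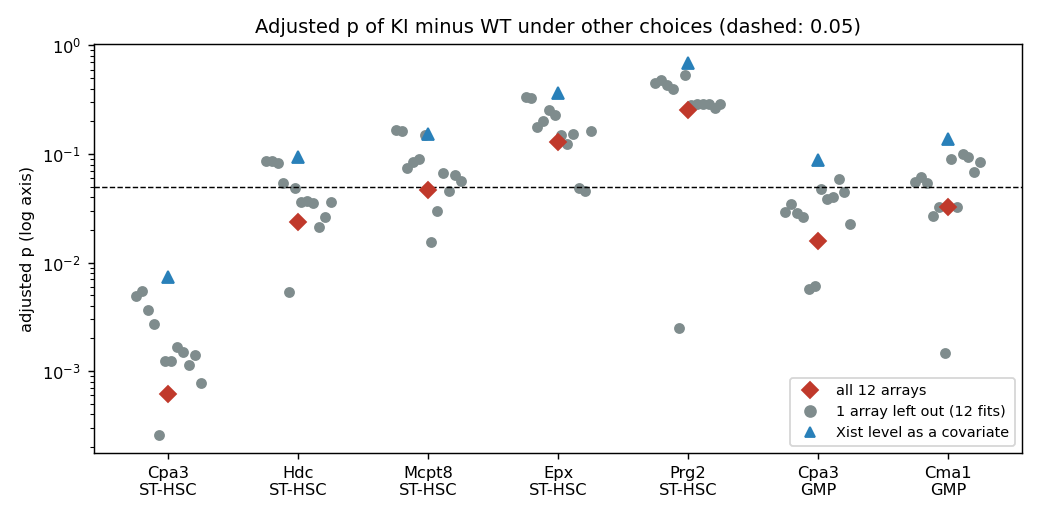
Limma adjusted p of KI minus WT on a log axis for 7 gene and population pairs, with all 12 arrays (red diamonds), with 1 array left out in 12 fits (gray dots) and with the Xist level as a covariate (blue triangles); the dashed line is 0.05. Cpa3 in ST-HSC is below the line in every fit shown, and the other pairs have fits on both sides of it.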

How the data were processed

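RNA of 12 sorted samples was hybridised to Affymetrix MG430 v2 arrays after linear amplification. The authors ran RMA on them in R-Bioconductor (no version is given in the sources used here), and what they deposited is 1 log2 value per probe set and array. RMA aligns the distributions of the arrays it is run on, which removes shifts common to all genes, and it compresses differences at low signal. Precision is limited by the number of arrays.

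Apart from 64 control probe sets, all 45037 entered the fit, with no filter on low values. The platform annotation gave 1 symbol to 34945, several to 932 and none to 9160. KI minus WT in ST-HSC, KI minus WT in GMP and their difference were fitted with limma 3.58.1 (lmFit, eBayes) in R 4.3.3 on 4 group means (residual degrees of freedom 8, prior 2.52). A gene is called where the Benjamini-Hochberg adjusted p across the 45037 probe sets is under 0.05, and 95% confidence intervals are from the same fit. Counts at an unadjusted p under 0.05 have no share of all probe sets beside them, because that share was not counted. The fit was tested on simulated data. Named genes are the 10 members and, in each list of other genes, up to 4 called genes by smallest adjusted p in each population. The 5 genes with the highest Pearson r for each called member are also named. Fcer1g, Kit, Csf2rb2, Prg3, Alox15, Ltc4s, Gata1, Mitf, Slamf1, Cd48, Flt3, Ms4a3 and Cd34 are named beside these. They were chosen after their values were seen. The members and lists were chosen with earlier results of these data known.

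The alternatives were a fit of the 6 arrays of a comparison, subtraction of array medians, quantile normalisation within a population, a filter on low probe sets (3 or more arrays with a log2 value of 6 or more), eBayes with trend and robust, SAM (the methods' test) with 20 splits, an absolute log2 difference above 2, averaging a gene's probe sets, the replicate number as a block, the Xist level as a covariate, a fit without the 4 WT arrays high in Xist, and leaving out each array in turn. Gene coordinates are those of the RefSeq promoter table; the array values name no build.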

Additional observations from a re-analysis of the deposited data

How the results depend on the processing

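All values are KI minus WT on the log2 scale or counts of called genes. Of the 8 members, 3 were called higher in ST-HSC and 2 in GMP, and these counts were 0 and 0 with SAM, 1 and 0 with the replicate block, and 1 and 0 with Xist as a covariate. Only 1 member was called higher in GMP with an absolute log2 difference above 2 or without the WT arrays of high Xist, where 1 member (Tpsb2) was called lower in ST-HSC. SAM called 41 probe sets higher and 121 lower in ST-HSC and 12 and 31 in GMP, against 458, 538, 475 and 484 with limma. Pathway genes called higher in ST-HSC numbered 3 with only the 6 arrays of a comparison, 0 with SAM, 1 above a difference of 2, 8 with a gene's probe sets averaged and 3 with the block, and in GMP 2, 7 with the filter on low values, 0, 2 and 10 for the mean of probe sets. SAM called 0 pathway genes lower in ST-HSC and 1 in GMP.

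With 1 array left out, 1 to 4 members were called higher in ST-HSC and 0 to 2 in GMP, and 0 to 1 for the difference between populations; pathway genes called higher numbered 1 to 6 in ST-HSC and 4 to 9 in GMP, and lower 3 to 6 in ST-HSC. The sign changed only where the value was near 0 or uncalled: Cma1 in ST-HSC (-0.036 with array medians subtracted, -0.0087 with quantiles, -0.38 with Xist as a covariate, -0.68 without the high-Xist arrays, -0.81 to 0.48 with 1 array left out), Tpsb2 in GMP (-0.013, -0.011, -0.55 and -0.096, in that order, and -0.11 to 0.098), Prg2 in GMP (0.054 with quantiles and -0.23 to 0.27), Prg2 in ST-HSC (-0.12) and Epx in GMP (-0.60) without the high-Xist arrays, Ccr2 in GMP (-0.045 with the mean of probe sets, -0.13 to 0.64), Itgb7 in ST-HSC (-0.064 to 0.64) and the interaction of Fcer1a (-0.12 to 0.85).

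Same-numbered KI and WT arrays deviated with correlations of 0.034 to 0.074 in ST-HSC and -0.038 to -0.0040 in GMP. Pairs of different numbers were not set beside these, so the values cannot show whether the numbers pair KI with WT. Between ST-HSC and GMP, same-numbered arrays correlated at -0.100 to 0.035 in KI and 0.062 to 0.164 in WT, where Xist was high in the same numbers. Arrays of different numbers correlated at -0.067 to 0.070 in KI and at -0.135 to 0.002 in WT. In WT all same-numbered values were thus above all the others, and in KI they were not. Whether these came from the same animals is unknown, and the test between populations treats the 12 arrays as independent. With the block the adjusted p was 0.0647 for Hdc and 0.145 for Mcpt8 in ST-HSC and 0.0582 for Cpa3 and 0.0814 for Cma1 in GMP, and Cpa3 in ST-HSC stayed called. Mcpt8 in ST-HSC was at 0.0520 with array medians subtracted, 0.0505 with quantiles, 0.153 with Xist and 0.246 without the high-Xist arrays. Hdc was at 0.0807 with the 6 ST-HSC arrays alone. Also lost with the block were Alox5, Cd33, Gata2 and Cebpa in ST-HSC and Btk and Il6 in GMP (0.0787 to 0.103). The cause of these changes was not tested.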
